A study of Pimephales promelas with 15 samples.

Results

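Livers of male fathead minnows (Pimephales promelas, a freshwater species common in toxicity tests) kept for 48 h in streamwater, taken from a stream below a wastewater treatment plant, were compared with livers of fish kept in control water, which was tap water passed over carbon and dechlorinated. The arrays were chosen by their titles, which gave 4 streamwater and 3 control arrays, or 7 of the 15 arrays of the series. The other 8 hold livers of fish kept in stormwater (4) and wastewater (4) and are used only where streamwater is set against them. All fish were mature males that were handled alike apart from the water, with 4 fish in each 40 L aquarium, 25 L of water and 75% of it renewed every 24 h. Each array holds the liver RNA of 1 fish, and the labels do not tie fish to aquaria, so p-values measure the spread between these fish, some of which may have shared an aquarium. A liver holds several cell types, and in bulk RNA fewer cells of a type and less RNA per cell cannot be told apart.

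The liver of a fish makes most plasma proteins, handles lipids and bile, and carries the enzymes that oxidise, conjugate and export foreign chemicals. In egg-laying fish it also makes the yolk precursor vitellogenin when estrogen receptors are active, so the male liver is a common tissue for testing waters that receive treated effluent. The files used here do not pair the probes with genes, and 0 of the array's sequence names matched the reference gene table. Neither these pathways nor the defining markers of liver could therefore be looked up, and each probe is described by its identifier and, where it has one, the assembled contig it was designed on.

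Levels are log2 of the scanner's processed signal minus the 75th percentile of that array's non-control probes, so 0 is the level of the upper quartile and a difference of 1 is a doubling. Of 15208 non-control probes, 10796 were well above background, by the scanner software's own call, on at least 3 of the 7 arrays and were tested. The 75th percentile itself ran from 1504 to 2591 intensity units in streamwater and from 1708 to 2150 in control arrays. With 7 arrays, the number of fish limits precision: for the median probe, the 95% confidence interval around a log2 fold change extended 1.05 to each side.

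Streamwater replicate 4 stood apart from the other 6 arrays. Across the tested probes, which are not independent replicates, it correlated with them at r = 0.697 to 0.817, while those 6 correlated at 0.894 to 0.936 with one another. It lay over 4-fold below all other 6 arrays in 613 probes and over 4-fold above them in 89. For the other arrays these counts were 4 to 93 and 5 to 13, with the 93 in streamwater replicate 3. An array could not be counted in a probe where another lay farther out, so the others had less room beside replicate 4. Its share of probes well above background (64.5%) and its background noise lay inside the range of the others, and its spike-in controls stood highest, at 3.43 (log2) over the 75th percentile against 2.29 to 3.29 on the other 6. The main comparisons of streamwater with control are therefore given with all 7 arrays and without this one.

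The share of detected probes was lower in streamwater livers, by a difference that did not pass the test. The share well above background was 62.7%, 66.1%, 60.2% and 64.5% in streamwater replicates 1 to 4, and 65.8%, 75.2% and 73.4% in control replicates 1 to 3. The mean was 63.4% ± 2.52 in streamwater (SD, n = 4) and 71.5% ± 4.97 in controls (SD, n = 3), a difference of -8.10 percentage points (two-sided exact permutation p = 0.0571 over 35 splits, where the smallest possible is 0.0286; adjusted p = 0.286 over 5 array measures). Without replicate 4 the difference was -8.49 points (exact permutation p = 0.2; 3 against 3 cannot go below 0.1). Control replicate 1, on the same slide as streamwater replicates 1 and 2, had a share between theirs. The difference was -1.45 points on that slide and -11.9 on the second slide, which holds control replicates 2 and 3 and streamwater replicates 3 and 4. The SD of negative-control spots, a measure of background noise, was 25.1, 20.6, 17.6 and 19.3 intensity units in streamwater replicates 1 to 4. In control replicates 1 to 3 it was 23.4, 13.1 and 14.0. Control replicates 2 and 3 had the least noise and the highest shares. Among streamwater livers, however, replicate 3 had both the least noise and the lowest share. The part of this noise in the detection difference was not tested.

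**Figure D1:**
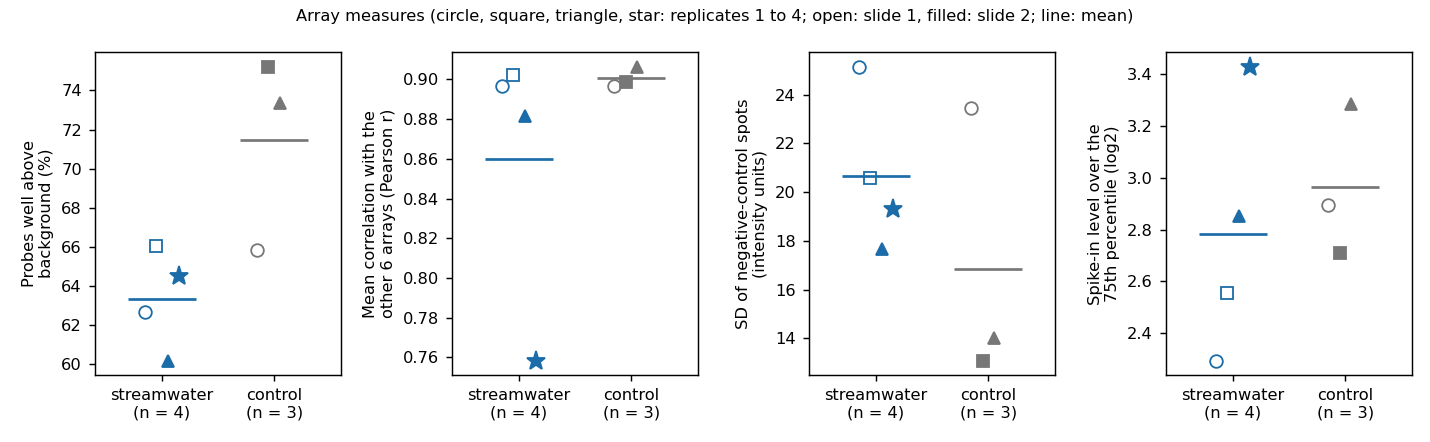
Each panel plots one measure of the 7 arrays (vertical axis, in the unit named there), with streamwater left of control, a line at the mean, and open or filled symbols for slide 1 or 2. Streamwater replicate 4 (star) has a mean correlation of 0.758 with the other arrays, below the 0.882 to 0.906 of the rest, and the controls on slide 2 have the lowest noise and the highest detection.

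The question of which transcripts differ after exposure to streamwater was asked with limma over all 10796 probes. With all 7 arrays no probe passed an adjusted p of 0.05 (lowest 0.568), while 347 probes (3.21%) reached an unadjusted p under 0.05, with streamwater higher in 97 (0.898%) and lower in 250 (2.32%). Without replicate 4 again none passed (lowest 0.114), and 517 probes (4.79%) had an unadjusted p under 0.05, with 146 (1.35%) higher and 371 (3.44%) lower. Both shares lie under the 5% at which that threshold is set. The split between higher and lower moved with scaling: with all 7 arrays it was 156 to 205 after quantile normalization, 123 to 144 with a normexp background, 143 to 166 in the authors' values, and 137 to 67 when arrays were scaled on their spike-in controls. Without replicate 4 spike-in scaling gave 566 higher and 82 lower, and normexp 420 and 167. Over all probes the median log2 fold change was -0.10 with all 7 arrays and -0.02 without replicate 4, and spike-in scaling moved it to 0.08 and 0.38. Which direction prevailed was thus not settled, and single probes are read against these medians.

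**Figure D2:**
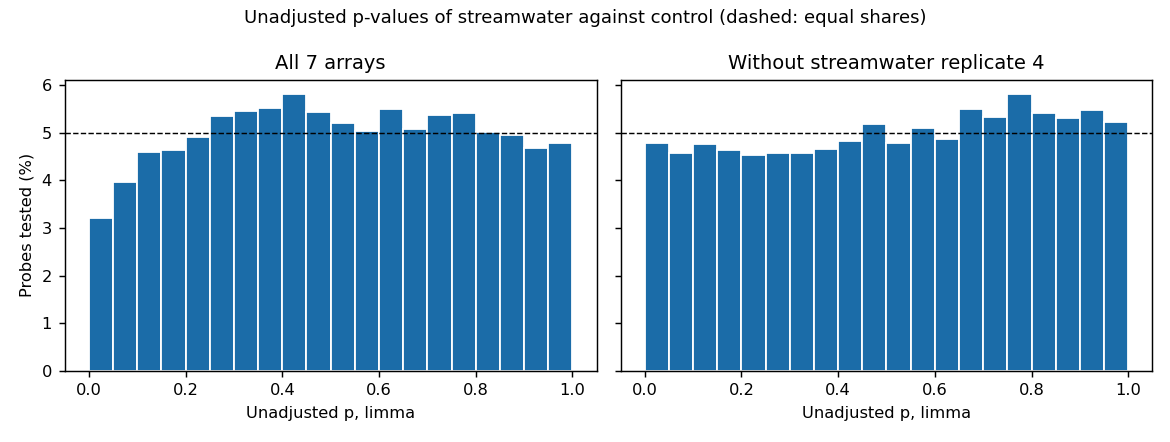
Histograms of limma's unadjusted p (horizontal axis) against the share of the 10796 tested probes (vertical axis, percent), for all 7 arrays on the left and without streamwater replicate 4 on the right. The lowest bin holds 3.21% and 4.79% of probes, below the dashed line of equal shares at 5% in both.

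Both lists at the unadjusted threshold overlapped in 261 probes, which is 75.2% of the list from 7 arrays and 50.5% of the list without replicate 4. These fits share 6 arrays, so the overlap is a description. Streamwater levels lay wholly above or wholly below control levels in 556 probes (5.15%), 234 above (2.17%) and 322 below (2.98%). Without replicate 4, where fewer arrays have to be kept apart, the count was 986 (9.13%), 355 above (3.29%) and 631 below (5.84%). If the water made no difference, a share of 0.0286 of the 35 possible splits would put streamwater wholly above, and as many wholly below. Without replicate 4 the share is 0.1 of 20 splits for both directions together. Both totals lie near or below these shares, so with this scaling the counts alone show no effect of streamwater.

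The lowest p in both fits belonged to UF_Ppr_AF_109476, a probe on contig FJU.13734.C1. Its level was -2.02, -0.94, -0.03 and 1.48 in streamwater replicates 1 to 4, and -6.16, -6.75 and -6.69 in control replicates 1 to 3. All 4 streamwater livers were well above background and no control was, so its signal was at least 17.3-fold higher in streamwater, and at least 11.2-fold without replicate 4, which held its highest value. This bound compares the streamwater mean with, per control array, the lowest signal the scanner still calls well above background. The measured means were -0.38 ± 1.48 (SD, n = 4) and -6.53 ± 0.32 (SD, n = 3). The limma adjusted p was 0.568 with all 7 arrays and 0.114 without replicate 4. It passed under 2 other settings: with spike-in scaling the adjusted p was 0.0436 (0.0119 without replicate 4), and with array weights and without replicate 4 it was 0.0488, in a range of 0.0119 to 1 over all settings. The probe entered the tested set through its streamwater arrays alone, the group in which it is high, so these p-values and the difference are not independent of that filter. It was the only probe (0.00658% of 15208) detected on every streamwater and no control array, both with all 7 arrays and without replicate 4.

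The same probe split the other waters. In stormwater replicates 1 to 4 it was at -0.57, -7.43, 1.75 and -1.62, with 3 of 4 arrays well above background. In wastewater replicates 1 to 4 it was at -6.03, -0.59, 1.28 and -3.75, with 2 of 4 arrays well above background. Detection in every streamwater liver is part of how this probe was chosen, so it is no result of this comparison. The streamwater mean exceeded that of wastewater by 1.90 and that of stormwater by 1.59 on the log2 scale. Neither difference passed limma's test (adjusted p = 0.855 for wastewater).

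Among 7802 probes well above background and unflagged on all 7 arrays, where both groups have a measured level, 216 lay wholly above and 230 wholly below the controls. The median size of these differences was 0.66 above and 0.81 below on the log2 scale. A difference over 2-fold was found in 36 of the 216 and 79 of the 230, and over 4-fold in 1 and 14. Among all 10796 tested probes, 227 were over 2-fold higher and 773 over 2-fold lower, or 242 and 548 without replicate 4. More and larger drops were thus not particular to the non-overlapping probes. The sets of 216 and 230 are about as large as splitting the arrays alone would give, a share of 0.0286 in each direction. Among 7824 probes well above background on all arrays compared, 5.70% had streamwater and control wholly apart. The 216 and 230 are therefore no sign of an effect by their number. From them the 8 of lowest p in each direction are described next. All 16 had a limma adjusted p of 0.991 with all 7 arrays, and their groups do not overlap because they were chosen that way.

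UF_Ppr_AF_106310 (contig FJU.5532.C1) was nearly level in the exposed fish, at -1.56, -1.65, -1.51 and -1.45 in streamwater replicates 1 to 4, and at -3.13, -2.99 and -2.49 in the controls. Streamwater averaged -1.54 ± 0.08 (SD, n = 4) and controls -2.87 ± 0.34 (SD, n = 3) (log2 fold change 1.33, SE 0.29). Its streamwater SD was the smallest of these 16 probes, and replicate 4 lay with the others. UF_Ppr_AF_113559 (contig FJU.9196.C1) was at 1.12, 0.05, 0.15 and 0.42 in streamwater and at -1.21, -0.98 and -1.17 in controls (log2 fold change 1.55, SE 0.35). UF_Ppr_AF_100456 (contig FJU_SB_30.293.C1) was at 2.18, 2.26, 1.42 and 2.47 in streamwater and at 0.75, 0.68 and 1.03 in controls (log2 fold change 1.26, SE 0.34). In all 3 probes each streamwater liver stood above every control. Without replicate 4 their log2 fold changes were 1.29, 1.56 and 1.13.

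For the other 5 higher probes the gap was of similar size. UF_Ppr_AF_116757 (contig FJU.110.C1) had the largest, at -1.07, -1.09, -1.58 and -0.15 in streamwater and -2.07, -2.89 and -4.05 in controls (log2 fold change 2.03, SE 0.54) that was 0.99 within slide 1 and 2.60 within slide 2. UF_Ppr_AF_107108 (contig FJU.2903.C2) was at 1.19, 1.82, 2.33 and 2.82 in streamwater and -0.20, 0.80 and 0.17 in controls. UF_Ppr_AF_118284 (contig FJU.2079.C1) was at -1.62, -0.48, -0.68 and 0.15 in streamwater and -2.45, -2.02 and -2.85 in controls. In these 3, replicate 4 held the highest streamwater value, and without it the log2 fold changes were 1.76, 1.52 and 1.51 in place of 2.03, 1.78 and 1.78. UF_Ppr_AF_105335 and UF_Ppr_AF_110174 had log2 fold changes of 1.31 (SE 0.32) and 1.49 (SE 0.40), and 1.24 and 1.22 without replicate 4.

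Among the lower probes UF_Ppr_AF_116781 (contig FJU.592.C9) had the largest difference. It was at 2.32, 2.79, 0.74 and -0.77 in streamwater replicates 1 to 4 and at 4.28, 5.11 and 5.58 in controls (log2 fold change -3.72, SE 0.85), or 13.1-fold lower. Replicate 4 was lowest, and without it the log2 fold change was -3.04 (SE 0.60, limma adjusted p = 0.782), or 8.21-fold lower. It was -1.72 within slide 1 and -5.36 within slide 2. In the other waters 1 liver of each lay at or below the streamwater range's upper end, with 2.56 in stormwater replicate 4 and -3.09 in wastewater replicate 1, and the remaining 6 were between 4.25 and 5.47. A probe on another contig of the same number, UF_Ppr_AF_110866 (FJU.592.C3), gave 5.16, -6.24, -1.87 and -1.74 in streamwater and -2.37, -0.73 and -1.04 in controls, so its groups overlapped.

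UF_Ppr_AF_101929 (contig FJU.1118.C1) was at 1.69, 1.96, 2.58 and 1.78 in streamwater and at 3.89, 4.43 and 3.51 in controls. Its log2 fold change of -1.94 (SE 0.36) had the lowest p of the 16 and was -1.87 without replicate 4, -2.07 within slide 1 and -1.79 within slide 2. The value therefore moved little with the array that stood apart or with the slide. UF_Ppr_AF_115802 (contig FJU_SB_30.463.C2) was tight in both groups, at -0.09, -0.12, -0.40 and -0.25 in streamwater and 0.85, 0.91 and 0.95 in controls, with a log2 fold change of -1.12 (SE 0.26). UF_Ppr_AF_116901 (contig FJU.1316.C1) was a bright probe, at 4.95, 4.64, 4.98 and 4.43 in streamwater and 5.85, 6.26 and 5.82 in controls, with a log2 fold change of -1.22 (SE 0.30). UF_Ppr_AF_118443 (contig FJU.811.C1) was at 0.04, 1.13, 0.27 and 0.77 in streamwater and 1.89, 2.13 and 2.08 in controls, with a log2 fold change of -1.48 (SE 0.35). In each of these 4 probes streamwater livers were below all controls and replicate 4 lay among or near the other streamwater livers. Without replicate 4 the log2 fold changes of UF_Ppr_AF_115802, UF_Ppr_AF_116901 and UF_Ppr_AF_118443 were -1.11, -1.12 and -1.55. UF_Ppr_AF_118896, UF_Ppr_AF_100386 and UF_Ppr_AF_108665 had log2 fold changes of -2.13 (SE 0.53), -1.79 (SE 0.42) and -1.56 (SE 0.37), and between -2.03 and -1.5 without replicate 4.

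**Figure D3:**
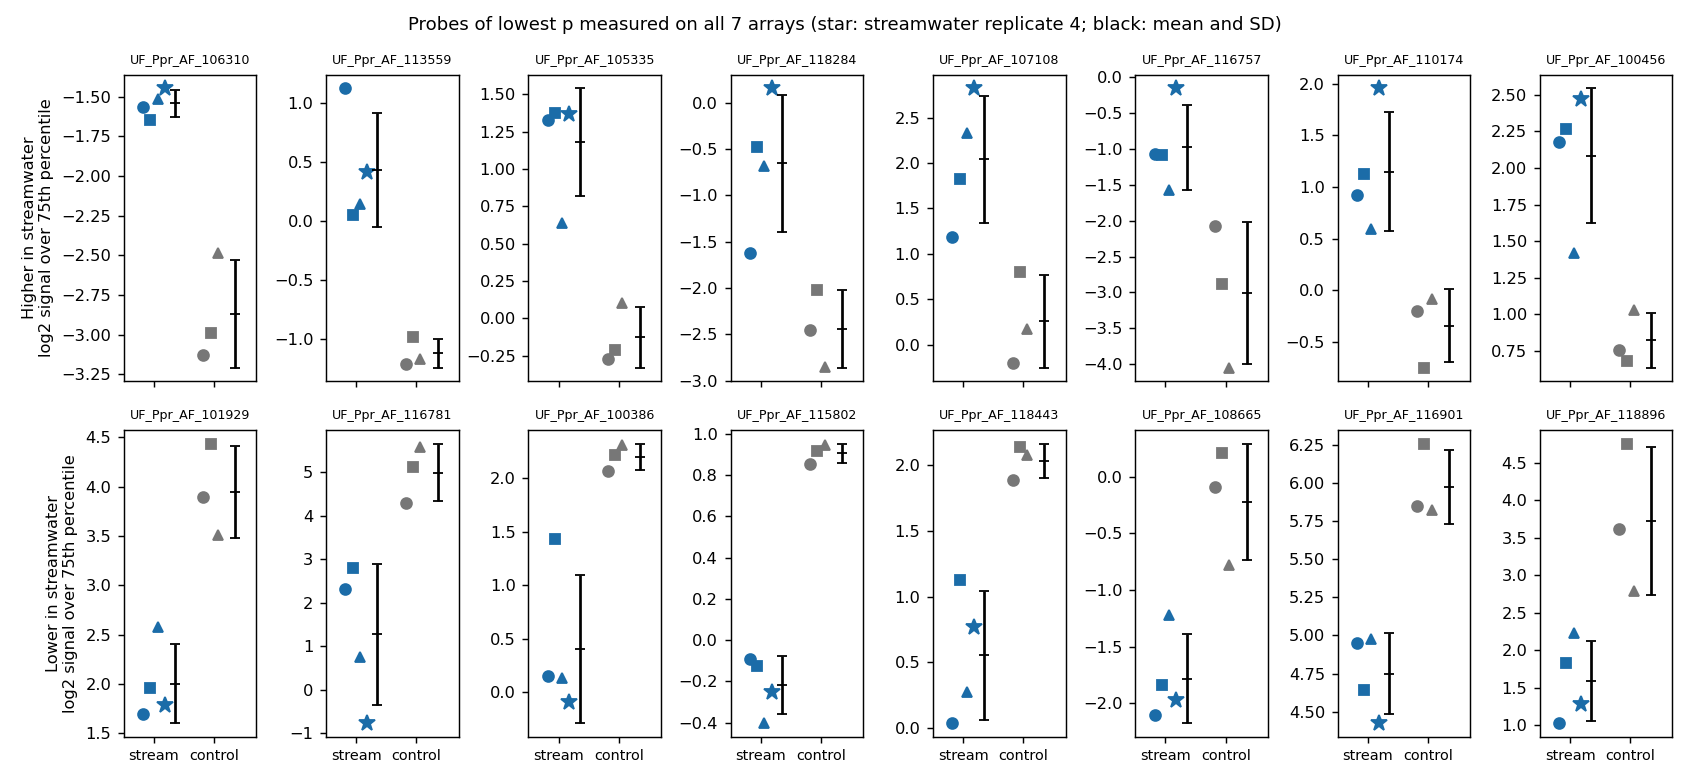
Each panel plots 1 probe's level (log2 signal over the array's 75th percentile) in streamwater livers on the left and control livers on the right, with the mean and SD in black and streamwater replicate 4 as a star. The groups are apart in all 16 by the way the probes were chosen, and the star is the lowest streamwater liver for UF_Ppr_AF_116781 at -0.77 and the highest for UF_Ppr_AF_110174 at 1.95.

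Of the 6 largest measured log2 fold changes in each direction, 12 in all, 11 came from probes in which the livers of at least 1 group spanned over 16-fold, and the exception was UF_Ppr_AF_109476. The probes described next were chosen after their values were seen. UF_Ppr_AF_109272 (contig FJU.1958.C7) had the largest measured one, 7.29 (SE 2.49, limma adjusted p = 0.991), from levels of 3.71, 5.18, 2.91 and 6.02 in streamwater and -6.07, 4.20 and -6.65 in controls. UF_Ppr_AF_103241 (contig FJU.3110.C1) followed the same livers, at 4.15, 5.50, 3.73 and 6.19 in streamwater and -2.49, 4.32 and -3.82 in controls (log2 fold change 5.55, SE 1.81, limma adjusted p = 0.991). Without streamwater replicate 4 these log2 fold changes were 6.77 and 5.12. All 4 streamwater livers and control replicate 2 were high for both probes, and control replicates 1 and 3 were low. For UF_Ppr_AF_109272 those 2 controls were not well above background, so only 1 of 3 controls measured it and its log2 fold change is a difference of recorded signals. This probe passed the detection filter through its streamwater arrays, the group in which it is high, so its difference is not independent of that filter. In stormwater UF_Ppr_AF_103241 was at -2.78, 6.57, -1.20 and 4.54, and in wastewater at 5.0, 3.46, -0.64 and -1.56. UF_Ppr_AF_109272 was high in the same 2 stormwater livers (5.97 and 4.63) and the same 2 wastewater livers (3.63 and 2.68), and low in stormwater replicate 1 and the other 2 wastewater livers, with stormwater replicate 3 left out as a flagged spot. That all 4 streamwater livers were in the high set follows largely from choosing probes by their difference from controls. Of the 3 controls, 1 was there too.

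In the other direction UF_Ppr_AF_115541 (contig FJU.8550.C1) was at -5.91, 2.48, -4.86 and -4.31 in streamwater and at 1.72, 5.84 and 1.89 in controls (log2 fold change -6.30, SE 2.05, limma adjusted p = 0.991). Streamwater replicate 2 alone was well above background and lay within the control range, so the groups overlap. UF_Ppr_AF_100352 (contig FJU.579.C1) was at -4.34, -3.69, -4.86 and -6.16 in streamwater and at -2.43, 2.69 and 1.72 in controls. Its groups did not overlap, but 1 of 4 streamwater livers was well above background, and the log2 fold change was -5.42 (SE 1.20; limma adjusted p = 0.991). Like UF_Ppr_AF_115541, it passed the detection filter through the controls, where it is high, so its difference is not independent of that filter. UF_Ppr_AF_118356 (contig FJU_SB_30.13.C1) was at 0.74, -0.47, 1.06 and 2.89 in streamwater and at 6.31, 1.36 and 7.58 in controls, so that here control replicates 1 and 3 were the high ones and control replicate 2 lay within the streamwater range. Its log2 fold change was -4.02 (SE 1.47, limma adjusted p = 0.991). Without streamwater replicate 4 the log2 fold changes of UF_Ppr_AF_115541, UF_Ppr_AF_100352 and UF_Ppr_AF_118356 were -5.91, -4.96 and -4.64.

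Detection calls, which the scanner software makes from the same spots, were counted as well. On all 3 control arrays and no streamwater array, 101 probes (0.664% of 15208) were well above background. Without replicate 4 the count was 161 (1.06%). These were dim probes: their control level had a median of -3.74 and ran from -4.40 to -2.09, near the lowest level that was called well above background on the 7 arrays (-4.79 to -3.70). Only 9 of the 101 had a bound over 2-fold. Leaving out an array can only raise the count, since fewer arrays have to agree. It was 334 without control replicate 1, the control with the most background noise, and 133 and 148 without control replicates 2 and 3. Without 1 of the streamwater arrays it was 127 to 194. With the scanner's less strict call of a positive and significant spot it was 55. Background noise was higher in streamwater than in control replicates 2 and 3, as given above, and its part in these counts was not tested.

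UF_Ppr_AF_114261 (contig FJU.65.C1) had the largest bound, at least 3.83-fold lower (limma adjusted p = 0.991). It was at -5.68, -6.10, -5.89 and -4.77 in streamwater and -2.54, -0.37 and -3.36 in controls. UF_Ppr_AF_118126 (contig FJU.1132.C1) was at least 3.01-fold lower, from -4.91, -3.77, -3.57 and -4.01 in streamwater and -2.33, -1.35 and -2.83 in controls. For UF_Ppr_AF_102472, UF_Ppr_AF_108959 and UF_Ppr_AF_116745 the bounds were 2.69-fold, 2.48-fold and 2.39-fold. Without replicate 4 the bounds of the 5 probes, in this order, were 3.52-fold, 2.84-fold, 2.47-fold, 2.23-fold and 2.19-fold. The 5 probes entered the tested set through their control arrays alone, so their differences and the p-value are not independent of that filter. The bounds hold only for the background subtraction of the scanner software. With a normexp background the fitted log2 fold changes of the 5 probes were -1.23, -0.64, -0.42, -0.72 and -0.29, smaller than the bounds.

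Leaving out replicate 4 changed the sign of the log2 fold change in 2728 probes (25.3%) and moved it by over 1 in 441. In 388 of these 441 it was lower with replicate 4 in the fit and in 53 higher. No such counts are given for leaving out another array, so how far they are particular to replicate 4 is not shown. The spread between fish followed: the median SD of a probe was 0.66 over the 4 streamwater livers, 0.47 over replicates 1 to 3 and 0.40 over the 3 controls. Levels spanned over 16-fold in 915 probes among all 4 streamwater livers, in 177 among replicates 1 to 3 and in 114 among the controls.

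By share, replicate 4 lay far below the other arrays most often in bright probes. It lay over 4-fold below all other 6 arrays in 20.7% of the 1435 probes with a control level over 2, in 5.55% of the 2342 between 0 and 2, and in 0.203% of the 492 under -4. Among the 100 brightest tested probes in controls it did so in 32, and no other array in any. In those 32 no other array could have been counted. A probe near background cannot lie far below the rest, so the dim classes allow less room. The largest recorded gap was in UF_Ppr_AF_111543 (contig FJU.156.C3), at 5.23, 3.78, 5.49 and -5.41 in streamwater replicates 1 to 4 and 4.85, 5.82 and 5.19 in controls, which put replicate 4 at 9.19 on the log2 scale below the nearest of the others. UF_Ppr_AF_107840 (contig FJU.170.C1) was at 6.04, 4.84, 6.23 and -3.74 in streamwater and 4.97, 5.0 and 5.35 in controls. UF_Ppr_AF_114145, UF_Ppr_AF_100044 and UF_Ppr_AF_101848 had gaps of 8.73, 8.71 and 8.58. Replicate 4 was not well above background in 4 of these 5 probes, all but UF_Ppr_AF_107840, so their gaps and order are those of recorded signals. Among the other 8 livers stormwater replicate 2 was also the lowest in each of these 5 probes, at -2.62 for UF_Ppr_AF_111543 and -1.64 for UF_Ppr_AF_107840.

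Replicate 4 lay over 4-fold above the other 6 arrays in 0.813% of tested probes with a control level under -4. The share was 0.854% between 0 and 2 and 0.279% over 2. The 5 probes in which it lay farthest above the rest were dim in the other 6 livers. UF_Ppr_AF_117260 (contig FJU.12309.C1) was at -2.98, -4.36, -5.80 and 2.56 in streamwater and -3.53, -2.57 and -3.30 in controls, a gap of 5.13. UF_Ppr_AF_116905 (contig FJU.4935.C1) was at -3.84, -2.01, -4.05 and 2.41 in streamwater and -3.07, -3.46 and -3.53 in controls, a gap of 4.43. UF_Ppr_AF_110600, UF_Ppr_AF_113407 and UF_Ppr_AF_111031 had gaps of 3.84, 3.66 and 3.62. These 10 probes were picked for the distance of replicate 4, and their values only describe that liver.

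In the 6 arrays without replicate 4, the probes of lowest p that the 7-array set does not hold are ones in which replicate 4 went the other way or farther. Probes of the 7-array set were passed over here, so this follows in part from the choice. UF_Ppr_AF_117737 was at 3.92, 6.85 and 5.13 in streamwater replicates 1 to 3 and -2.37 in replicate 4, against 0.63, 1.96 and 0.93 in controls. Its log2 fold change was 4.12 without replicate 4 (SE 0.75, 17.4-fold higher, limma adjusted p = 0.782) and 2.21 with it (SE 1.96), and with all arrays it was 4.75 within slide 1 and -0.07 within slide 2. In stormwater it was at 3.42, -3.0, 7.46 and 5.72 and in wastewater at 1.59, 3.95, 5.15 and 7.11, so high levels were not limited to streamwater. UF_Ppr_AF_108270 (contig FJU.4261.C1) was at 0.33, 0.08, 0.93 and, in replicate 4, -1.81, against -1.09, -1.45 and -1.53 in controls, a log2 fold change of 1.80 without replicate 4 (SE 0.33, limma adjusted p = 0.782) and 1.24 with it. UF_Ppr_AM_119840 and UF_Ppr_AF_111656 gave 1.39 and 1.26 without replicate 4, and 0.47 and 0.72 with it.

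Of the 4 lower probes of this kind, UF_Ppr_AM_119990 was at -1.40, -1.76, -1.78 and, in replicate 4, -0.25, against 0.33, 0.27 and -0.27 in controls. Its log2 fold change was -1.76 without replicate 4 (SE 0.31, limma adjusted p = 0.782) and -1.41 with it, and replicate 4 lay inside the control range. UF_Ppr_AF_100639 (contig FJU.2908.C1) was at 1.69, 1.54, 1.26 and, in replicate 4, 4.23, against 2.71, 3.75 and 4.47 in controls, with log2 fold changes of -2.15 without it and -1.46 with it. UF_Ppr_AF_115620 went the other way: replicate 4, at -2.75, lay below the -0.74, -0.65 and -0.74 of the other streamwater livers and the 0.74, 0.76 and 0.37 of controls, and its log2 fold change was -1.33 without replicate 4 and -1.84 with it. UF_Ppr_AM_120365 gave -1.62 without replicate 4 and -1.26 with it. None of these 8 probes passed limma's test in either fit.

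**Figure D4:**
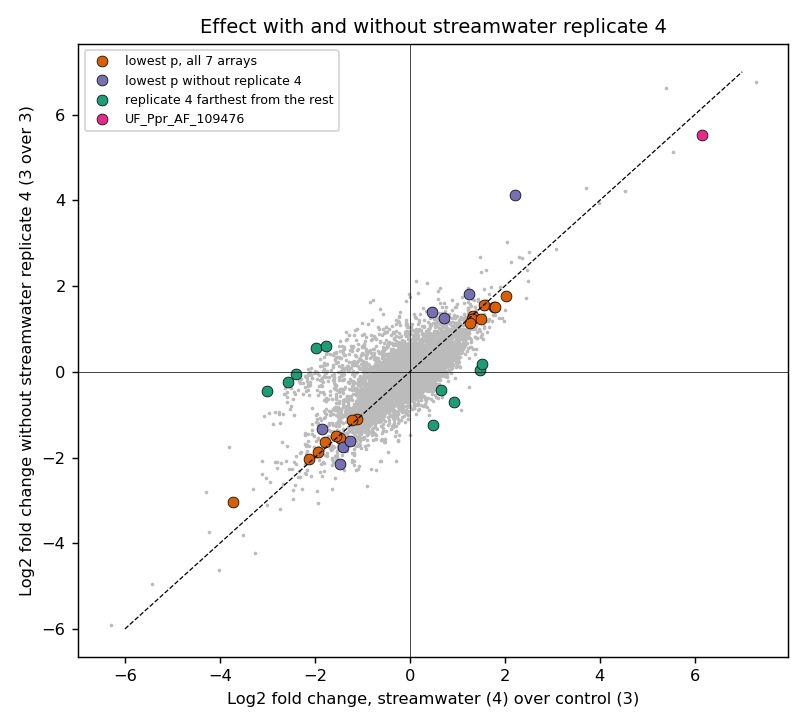
Each grey point is 1 of 10796 tested probes, with its log2 fold change of streamwater over control from all 7 arrays on the horizontal axis and without streamwater replicate 4 on the vertical axis. Coloured probes are those described in the text: UF_Ppr_AF_109476 lies near the dashed line of equality at 6.16 and 5.54, while UF_Ppr_AF_111543 is at -3.02 with replicate 4 and at -0.45 without it.

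Streamwater was also set against the other 2 waters in a fit over all 15 arrays, to ask where it differs from them. The probes were the same 10796, chosen by detection on streamwater and control arrays. Probes detected only in stormwater or wastewater livers were therefore not tested. Against stormwater no probe passed limma's test (lowest adjusted p = 1.00 to 3 digits), and 229 probes (2.12%) had an unadjusted p under 0.05. Without streamwater replicate 4 the count was 678 (6.28%) and the lowest adjusted p 0.520. Against wastewater none passed either (lowest adjusted p = 0.197), and 639 probes (5.92%) had an unadjusted p under 0.05, or 363 (3.36%) without replicate 4. Replicate 4 thus moved the 2 counts in opposite directions. Stormwater replicate 2 stayed in all of these fits. It was the lowest of the stormwater and wastewater livers in the probes described above for a far lower level in streamwater replicate 4. Its part in these counts was not tested.

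Among the 16 probes of lowest p, 3 of the higher ones lay above wastewater by over 2-fold and close to stormwater. UF_Ppr_AF_105335 was at 1.33, 1.38, 0.64 and 1.37 in streamwater and at 0.07, 0.00, -0.76 and -0.23 in wastewater, with no overlap and a log2 difference of 1.41 (limma adjusted p = 0.407), against 1.31 from controls. UF_Ppr_AF_110174 was at 0.93, 1.13, 0.59 and 1.95 in streamwater and at -0.58, -0.12, -0.20 and -0.14 in wastewater, a log2 difference of 1.41 (limma adjusted p = 0.825), against 1.49 from controls. UF_Ppr_AF_107108 differed by 1.39 from wastewater (limma adjusted p = 0.825) and by 1.78 from controls, with an overlap through wastewater replicate 2 at 2.06. The differences of these 3 from stormwater were 0.13, 0.09 and 0.29, and none was shown to be particular to streamwater. UF_Ppr_AF_113559 and UF_Ppr_AF_116757 exceeded stormwater by 1.25 and 1.63 and wastewater by 1.44 and 1.04, with overlapping levels in both waters. The 8 lower probes also averaged below controls in the other waters. Their log2 fold changes against the same controls ran from -2.69 to -0.74 in stormwater and from -2.16 to -0.62 in wastewater. Those of the 8 higher probes ran from 0.31 to 1.52 in stormwater and from -0.10 to 1.04 in wastewater. All 16 were chosen for controls that lay wholly above or below streamwater. Controls that lie high or low also stand apart from the other waters, so this likeness follows in part from the choice.

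**Figure D5:**
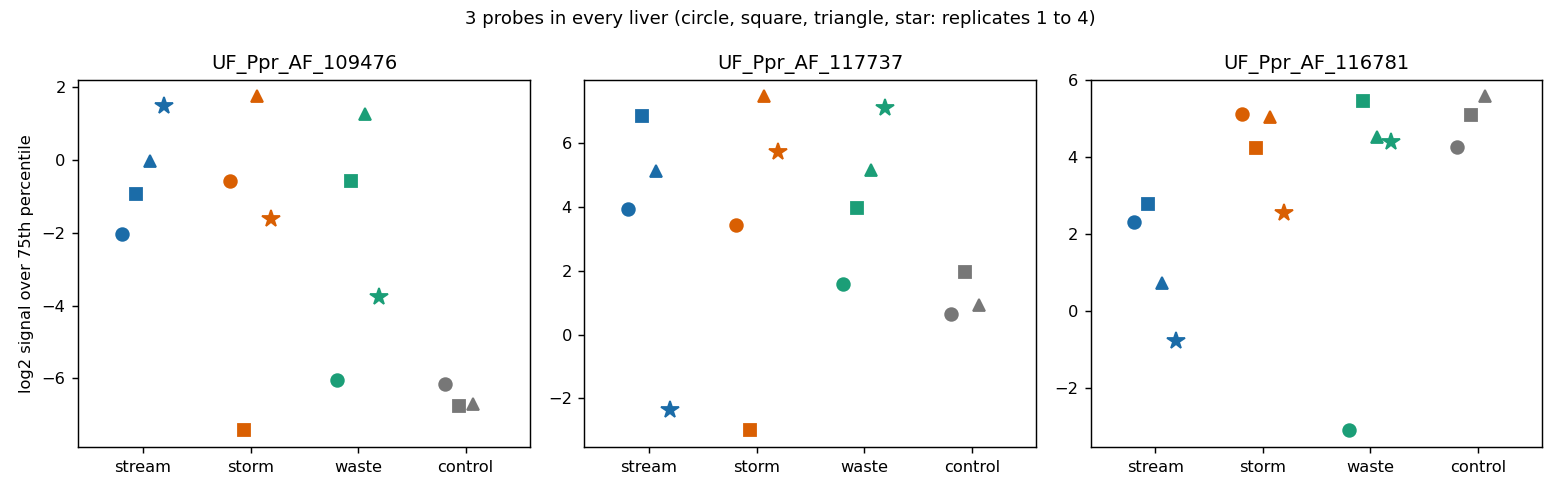
Levels (log2 signal over the array's 75th percentile) of 3 probes in every liver of the series, by water, with control at the right and symbols for the replicate numbers. UF_Ppr_AF_109476 is high in all 4 streamwater livers and at -6.16 or lower in the controls, where it is not well above background, while single livers of stormwater and wastewater lie at both ends.

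The array holds 709 sequences with a second probe, and for 236 of them both probes were tested here. Across these pairs the log2 fold changes correlated at r = 0.126, and the mean levels at r = -0.139. Paired probes thus did not follow each other even in level. The pairs can therefore not serve as repeat measurements, and r = 0.126 does not show how well a streamwater difference repeats. Both values are descriptions over probe pairs that share the arrays and of which none passed the test.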

How the data were processed

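Per the labels, RNA of 1 fish was labelled with Cy3 and hybridised per array, with 1000 ng of total RNA at an integrity number of 8.0 to 9.9. The scanner files deposited hold spot intensity values written by Agilent Feature Extraction (10.1.1.1 per the file headers, 9.5 per the submitters' processing notes), with background subtracted within the array. The authors' deposited value table is on a log2 scale. Its columns correlated at 0.998 to 1.00 with log2 processed signal, with medians of 8.36 to 8.50, and the sources used here do not give the step that put them on 1 level. It served as an alternative.

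Computed here were log2 processed signal minus the array's 75th percentile, flagged spots set to missing (43 among tested values, so such a probe was fitted on fewer arrays), and limma 3.58.1 in R 4.3.3 (lmFit, eBayes, two-sided) on 7 and 6 arrays, Benjamini-Hochberg adjusted over 10796 probes. The same probes were tested in both fits. Scripts were tested on simulated data. Array measures were compared by exact permutation.

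Named probes are the 8 of lowest p in each direction among non-overlapping probes measured on all 7 arrays, the 5 with the largest detection bound, the 4 of lowest p in each direction without streamwater replicate 4, and the 5 in which that array lay farthest below and above. Members, rules and lists were chosen with earlier results of these data known. Planned gene lists and cell type markers could not be used, since the files pair no probe with a gene.

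Alternatives were quantile and spike-in scaling (6 of 10 spike-in probes), a normexp background (offset 50), other filters, blocks, array weights, the authors' values, all 15 arrays and leaving out each array. Fits within slides were added after the data were seen. There, the lone control on slide 1 takes its spread from the other arrays. Figures were drawn with matplotlib 3.10.9.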

Additional observations from a re-analysis of the deposited data

Results flagged for a closer look

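In 10 of 46 sets of 4 streamwater values checked, 1 liver lay far from the other 3 by Dixon's ratio, its gap to the nearest divided by the range, and chance alone gives about 1 in 20. That rate is no measure for this count, since the probes were chosen by their values and many of them for how replicate 4 differs. The mean correlation with the other arrays had a ratio of 0.855, with streamwater replicate 4 at 0.758 and the nearest at 0.882. The level of UF_Ppr_AF_105335 had 0.935, with replicate 3 at 0.64 below 1.33, and UF_Ppr_AF_100386 had 0.839, with replicate 2 at 1.43 above 0.15. In the other 7 the distant liver was replicate 4. UF_Ppr_AM_119840 had a ratio of 0.854 (-2.77 against 0.65), UF_Ppr_AF_115620 had 0.957 (-2.75 against -0.74) and UF_Ppr_AF_100639 had 0.855 (4.23 against 1.69). UF_Ppr_AF_111543, UF_Ppr_AF_114145, UF_Ppr_AF_107840 and UF_Ppr_AF_101848 had 0.843, 0.869, 0.860 and 0.850, and these 4 were picked because replicate 4 was far below in them. The 3 before them were picked for a low p without replicate 4.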

How the results depend on the processing

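For the 30 probes named by p or by a bound, each in the fit that named it, the log2 fold change kept its direction in all 646 values from other settings, of which 645 also kept their side of the threshold and 1 (UF_Ppr_AF_109476, spike-in scaling) passed it. The groups of these probes do not overlap in the fit that named them. Leaving out an array or fitting within a slide could therefore not change their direction, and that part of the count is no test. Sizes shrank most with a normexp background for the 5 probes with a bound, as given above. Of the 10 probes picked for the distance of streamwater replicate 4, 5 changed sign without it. The number of probes passing an adjusted p of 0.05 was 1 with spike-in scaling in both fits, 2 with array weights without streamwater replicate 4, 0 when any of the 7 arrays was left out, and 0 to 3 when a second array was left out as well. The 2 were UF_Ppr_AF_109476 and UF_Ppr_AF_114515 (log2 fold change 2.59, adjusted p = 0.0488, range 0.0488 to 1). The 3, without streamwater replicates 2 and 4, were UF_Ppr_AF_109972, UF_Ppr_AF_102146 and UF_Ppr_AF_101251 (adjusted p = 0.0104, 0.0223 and 0.0372, up to 1 over other settings). In all 3 the livers left out lay nearer the controls than replicates 1 and 3 did, so these p-values follow in part from leaving them out. UF_Ppr_AF_101251 was well above background on no control array. It entered the tested set through its streamwater arrays alone, so its p-value is not independent of that filter. Of 347 probes at an unadjusted p under 0.05, the count moved to 204 with spike-in scaling, 538 with no filter on dim probes, 527 with slide as a block, 632 with array weights, 225 within slide 1 and 336 within slide 2, and to 171 to 674 with 1 array left out (171 without control replicate 2, 222 without control replicate 1, 674 without streamwater replicate 3). Without streamwater replicate 4, 517 moved to 1273 with array weights, 1014 within slide 2 and 594 within slide 1, and to 270 to 871 with another array left out (270 without control replicate 2, 327 without streamwater replicate 1, 871 without streamwater replicate 2). Over all probes the median log2 fold change, -0.10 and without replicate 4 -0.02, was 0.0849 and 0.377 with spike-in scaling and 0.185 and 0.238 with a normexp background, and ran from -0.142 to -0.0198 and from -0.071 to 0.0331 with arrays left out. The share of non-overlapping probes grew to between 8.40% and 13.7%, and to between 14.2% and 24.0% without replicate 4, since fewer arrays have to be kept apart, and spike-in scaling gave 14.6% without replicate 4. The detection difference ran from -10.9 to -6.23 points with 1 array left out. Probes detected in every control and no streamwater liver numbered 55 with the less strict call and 127 to 334 with arrays left out (194 without streamwater replicate 2), and those the other way 1 to 3. The gap of replicate 4 at UF_Ppr_AF_111543 ran from 6.49 with normexp to 10.07 with spike-in scaling. Deviations of same-numbered samples correlated at -0.035 to 0.0144, which shows no pairing by replicate number but cannot exclude one. The replicate block gave 523 probes at an unadjusted p under 0.05 and 0 that passed, with or without streamwater replicate 4, which has no control of its number. The causes of these shifts were not tested. Probes near background limit what low levels show.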

Other observations

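UF_Ppr_AF_109972 (contig FJU_SB_30.51.C2), chosen after its values were seen, split the streamwater livers in pairs. It was at 1.98 and 2.07 in streamwater replicates 1 and 3 and at 8.00 and 7.93 in replicates 2 and 4, against 8.23, 7.96 and 8.57 in controls. UF_Ppr_AF_102146 (contig FJU.10544.C1) had the same pair low, at -1.23 and -1.20 in streamwater replicates 1 and 3, with 2.71 and 0.49 in replicates 2 and 4, against 3.21, 3.26 and 3.10 in controls. Replicate 4, which stood apart in many bright probes, lay close to the controls for the first of these and between the pairs for the second.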
